A study of Homo sapiens with 6 samples.

Results

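The Hippo core, taken here as 10 genes, comprised NF2, WWC1, STK3, STK4, SAV1, MOB1A, LATS1, LATS2, YAP1 and WWTR1. The members were the rows of the deposited raw count table whose Ensembl identifiers pair with these symbols, and all 10 were found among 61859 genes. RNA was sequenced from IOMM-Lee, an established line of malignant (grade 3) meningioma; meningiomas arise in the meninges, the coverings of the brain. Hypoxia libraries (3 biological replicates) came from cells held for 48 h at 0.2% oxygen, and normoxia libraries (3 biological replicates) from cells of the same line listed as normoxic at 48 h, with no oxygen level given for them (the treatment text of both groups describes the hypoxia workstation alone). Both groups share 1 line and the same serum-containing medium, and no genetic change is listed for either. The labels do not say whether replicates were separate cultures, so the p-values measure the spread between these samples, which may be technical.

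The Hippo pathway is a kinase relay that restrains growth. Merlin, the product of NF2, and KIBRA, the product of WWC1, recruit and activate it at the cell cortex. MST kinases (STK3 and STK4) with the scaffold SAV1 then activate the LATS kinases and their co-activator MOB1, and LATS phosphorylates the co-activators YAP (YAP1) and TAZ (WWTR1), which keeps them away from the TEAD factors in the nucleus. Loss of NF2 is the best known genetic lesion of meningioma.

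Libraries held between 10619864 and 18447885 counts in hypoxia and between 14685317 and 19554178 counts in normoxia. Known oxygen-responsive genes matched the labels, with CA9 at 929 ± 32.0 CPM in hypoxia and 70.7 ± 14.9 CPM in normoxia (mean ± SD, n = 3 each), where CPM is the count scaled to a common library total after TMM normalisation. Of 8 such genes listed, 8 were higher. Hypoxia replicate 3 stood apart from the other hypoxia libraries, at -47.7 on the second principal component against 27.2 and 20.1, and values without it are given below. Among 12 markers used for meningioma and arachnoid cells, VIM (5561 to 7222 CPM in hypoxia, 2601 to 3456 CPM in normoxia) and the desmosome gene DSP were abundant, 7 were tested (5 higher and 2 lower), and PTGDS, PGR, CDH1, DSC2 and ALPL had at most 4 counts over all libraries. Of 8 leukocyte markers 1 was tested and 0 were called, and their summed level was 1.73 to 2.85 CPM in hypoxia and 2.57 to 2.93 CPM in normoxia. Summed endothelial markers lay at 170 to 185 CPM in hypoxia and 150 to 176 CPM in normoxia, mostly TIE1, and of 4 tested 2 were lower. Neural and glial markers summed to 15.2 to 17.9 CPM in hypoxia and 19.1 to 24.1 CPM in normoxia (1 higher and 2 lower of 6 tested), fibroblast markers to 42.2 to 61.8 CPM in hypoxia and 62.8 to 66.0 CPM in normoxia (1 higher and 2 lower of 4), and keratinocyte markers to at most 55.6 CPM in hypoxia and at most 18.2 CPM in normoxia, nearly all KRT10, the 1 tested and higher, with KRT14, KRT1, DSG3 and KRT6A at 0 counts. The part of these marker changes in the Hippo results was not tested. In bulk RNA, fewer cells of a kind and less RNA per cell cannot be told apart.

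Within the core, hypoxia went with less RNA for merlin and for MOB1A and with more RNA for the LATS kinases and SAV1. NF2 was 3.00-fold and MOB1A 2.19-fold lower, whereas LATS2 was 2.05-fold, LATS1 1.62-fold and SAV1 1.53-fold higher. The MST kinases STK3 and STK4 did not pass the test. YAP1 and WWTR1 passed it narrowly, at 1.16-fold and 1.22-fold higher. WWC1 was barely expressed. Of 10 members, 9 passed the filter on low counts, and among these 5 rose, 2 fell and 2 were not called (edgeR quasi-likelihood test, Benjamini-Hochberg adjusted p under 0.05). Over all 16411 tested genes 62.2% were called, 31.2% higher and 31.0% lower, so a call on a member is not unusual in these libraries. For 7 of these 9 the hypoxia and normoxia values were fully separated, as they were for 67.9% of all tested genes. The number that rose was 3 in place of 5 without hypoxia replicate 2 and without normoxia replicate 1, 2 or 3, and with library totals alone 3 rose and 4 fell. That scaling moved the median log2 change of all tested genes to -0.30 from 0.01 and split their calls into 3421 higher and 6905 lower, in place of 5117 and 5091. Against a change of more than 1.5-fold (edgeR glmTreat), 1 member was higher and 2 were lower, where 17.2% and 18.6% of all tested genes were (35.8% in either direction).

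**Figure D1:**
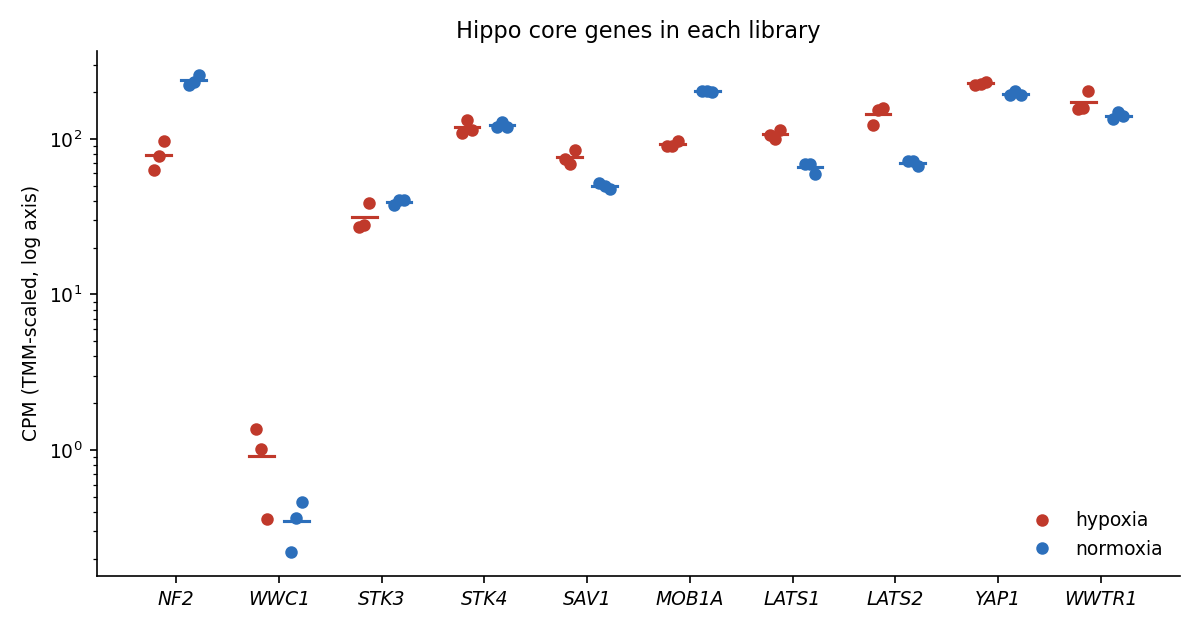
Level of each Hippo core gene in CPM (log axis) in the 3 hypoxia libraries (red, left) and the 3 normoxia libraries (blue, right), with a bar at each group mean. NF2 and MOB1A lie lower in hypoxia and LATS1, LATS2 and SAV1 higher without overlap, and WWC1 lies far below the others.

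Of the upstream pair in the core, NF2 and WWC1, NF2 was well measured and fell. NF2 (ENSG00000186575, GRCh38 chromosome 22, 29603556 to 29698598, plus strand) encodes a band 4.1 family scaffold that links membrane proteins to the cytoskeleton and to the Hippo kinases. It had 601, 756 and 1612 counts in hypoxia and 4995, 3815 and 4435 counts in normoxia, which is 63.4, 77.1 and 97.0 CPM in hypoxia against 222, 234 and 259 CPM in normoxia. The groups were far apart, and hypoxia replicate 3 had the highest hypoxia value. The log2 change was -1.58 ± 0.15 (SE; edgeR adjusted p = 6.58e-06), and 9.30% of the tested genes had a lower value. It was -1.79 without hypoxia replicate 3 and kept its direction and call under all 16 alternatives, from -1.89 with library totals alone to -1.46 without hypoxia replicate 1. The exons of NF2 overlapped no exon of another annotated gene.

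KIBRA, the other upstream scaffold, was close to the limit of detection. WWC1 (ENSG00000113645, chromosome 5, 168291651 to 168472303) had 13, 10 and 6 counts in hypoxia and 5, 6 and 8 counts in normoxia, a mean of 0.917 ± 0.513 CPM in hypoxia and 0.352 ± 0.123 CPM in normoxia. The groups overlapped and the gene was not tested. It entered the test under 5 of the alternatives. Leaving out hypoxia replicate 3 gave a call, at 1.74 on the log2 scale (edgeR adjusted p = 0.0168), whereas the other 4 missed the threshold, at adjusted p from 0.0905 to 0.228. Its relatives were better measured and both fell. WWC3 was at 11.9 ± 4.33 CPM in hypoxia and 42.9 ± 0.864 CPM in normoxia, a log2 change of -1.83 ± 0.21 (SE), and WWC2 was at 28.7 ± 6.52 CPM in hypoxia and 45.4 ± 1.25 CPM in normoxia, at -0.65 ± 0.15.

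With TMM scaling and all 6 libraries, the MST kinase genes were the least changed of the kinase module. That order did not hold without hypoxia replicate 3 (log2 changes of -0.54 for STK3 and 0.50 for SAV1). Nor did it hold with library totals alone (-0.63 for STK3 and 0.30 for SAV1). STK4 (chromosome 20, 44966474 to 45079959), which encodes MST1, was at 110, 132 and 114 CPM in hypoxia and 119, 129 and 118 CPM in normoxia. Its log2 change was -0.04 ± 0.10 (edgeR adjusted p = 0.713). STK3 on chromosome 8, which encodes MST2, was at 27.2, 28.0 and 38.6 CPM in hypoxia and 37.5, 40.6 and 40.4 CPM in normoxia. Hypoxia replicates 1 and 2 lay under every normoxia library, while replicate 3 lay among them, and the log2 change was -0.33 ± 0.14 (edgeR adjusted p = 0.0682). Without hypoxia replicate 3 STK3 was called lower, at -0.54 (adjusted p = 0.000461). It was also called with upper-quartile scaling, with library totals alone and with no filter, and STK4 with library totals alone.

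SAV1, the scaffold that joins the MST kinases to LATS, rose. SAV1 (ENSG00000151748, chromosome 14, 50632058 to 50668331) was at 74.7, 69.2 and 85.1 CPM in hypoxia and 52.1, 49.8 and 47.9 CPM in normoxia, with every hypoxia library above every normoxia library. Its log2 change was 0.61 ± 0.11 (edgeR adjusted p = 0.000516), and 0.30 with library totals alone (adjusted p = 0.0405). Exons of ATL1 on the opposite strand cover 14.9% of the SAV1 exon length, and ATL1 had 145 counts in all against 5607 for SAV1.

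MOB1A moved the opposite way from the kinases that its product activates. MOB1A (ENSG00000114978, chromosome 2, 74152528 to 74178898) was at 89.6, 89.9 and 97.5 CPM in hypoxia and 202, 204 and 200 CPM in normoxia. Replicates were tight and the groups well separated, with a log2 change of -1.13 ± 0.09 (edgeR adjusted p = 1.54e-06). Its paralog MOB1B did not pass the test, at 89.6 ± 21.3 CPM in hypoxia and 87.9 ± 4.71 CPM in normoxia (log2 change 0.02 ± 0.16, adjusted p = 0.903). The coding sequences of the pair are similar, so reads that match both could be split or lost in counting.

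Both LATS kinase genes rose. LATS2 (ENSG00000150457, chromosome 13, 20973032 to 21061547), itself a known target of YAP, was at 122, 154 and 157 CPM in hypoxia and 72.6, 72.0 and 66.8 CPM in normoxia. The lowest hypoxia library was well above the highest normoxia library. The log2 change was 1.03 ± 0.11 (edgeR adjusted p = 1.83e-05), larger than that of 83.4% of tested genes. LATS1 (ENSG00000131023, chromosome 6, 149658153 to 149718256) was at 106, 100 and 114 CPM in hypoxia and 68.9, 69.4 and 59.5 CPM in normoxia, again without overlap, at 0.70 ± 0.10 (adjusted p = 0.000155), and at 0.38 with library totals alone (adjusted p = 0.0120). An antisense gene whose exons cover 4.72% of the LATS1 exon length had 22 counts over all libraries.

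YAP1 and WWTR1, the outputs of the pathway, were abundant and changed little. YAP1 (ENSG00000137693, chromosome 11, 102110461 to 102233423) was at 221, 227 and 234 CPM in hypoxia and 192, 202 and 192 CPM in normoxia, a log2 change of 0.22 ± 0.08 (edgeR adjusted p = 0.0410). WWTR1 (ENSG00000018408, chromosome 3, 149517235 to 149736714) was at 155, 159 and 202 CPM in hypoxia and 135, 148 and 140 CPM in normoxia, at 0.29 ± 0.11 (adjusted p = 0.0458). Hypoxia replicate 3 was the highest library for both. Each call was lost under 12 of 16 alternatives, among them library totals alone, where the direction turned, to -0.09 for YAP1 and -0.02 for WWTR1. Without hypoxia replicate 3 the changes were 0.17 for YAP1 (adjusted p = 0.0621) and 0.13 for WWTR1 (adjusted p = 0.164). Antisense genes cover 9.98% of the YAP1 and 9.45% of the WWTR1 exon length and had 0 and 60 counts in all; with the strand setting not stated, reads of such pairs cannot be told apart.

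**Figure D2:**
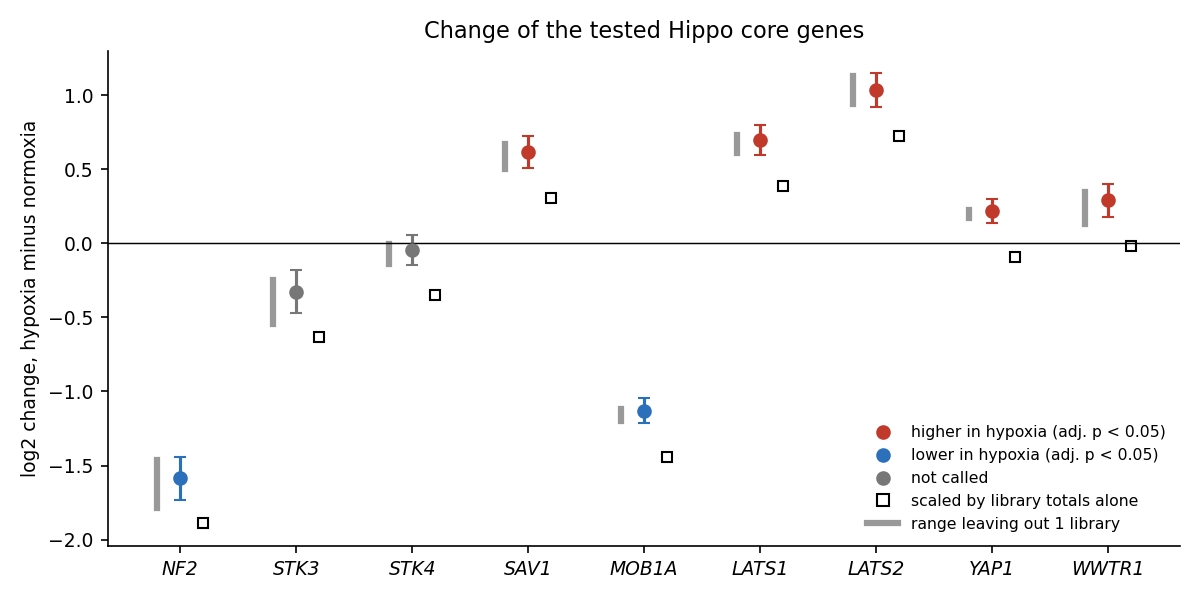
Log2 change (hypoxia minus normoxia) of the 9 tested members with its SE, beside the value under library totals alone (open square) and the range when 1 library is left out (grey bar). NF2, MOB1A, LATS1, LATS2 and SAV1 keep their side of 0 throughout, whereas YAP1 and WWTR1 cross to -0.09 and -0.02 with library totals alone.

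Per kilobase of annotated exon, the order of the levels differed between the groups. In hypoxia YAP1 led at 36.1 ± 0.977 CPM per kilobase, followed by LATS2 at 25.9 ± 3.46 and WWTR1 at 20.4 ± 3.11, whose ranges overlapped. MOB1A (14.3 ± 0.690), SAV1 (13.6 ± 1.44), STK4 (13.1 ± 1.32), LATS1 (12.4 ± 0.803) and NF2 (11.0 ± 2.36 CPM per kilobase) came next in hypoxia, and each overlapped its neighbour. In normoxia NF2 was at 33.2 ± 2.65, MOB1A at 31.4 ± 0.365 and YAP1 at 31.0 ± 0.944 CPM per kilobase, with overlapping ranges. They were followed in normoxia by WWTR1 at 16.7 ± 0.784, STK4 at 13.5 ± 0.630, LATS2 at 12.6 ± 0.567, SAV1 at 8.87 ± 0.371 and LATS1 at 7.63 ± 0.645 CPM per kilobase, none overlapping its neighbour. STK3, at 2.48 ± 0.507 in hypoxia and 3.14 ± 0.141 in normoxia, and WWC1, at 0.0910 ± 0.0509 in hypoxia and 0.0350 ± 0.0122 in normoxia, were lowest on this scale in both groups. NF2 was thus 8th of 10 in hypoxia and 1st in normoxia. These lengths join all annotated exons of a gene and can exceed the length of the transcripts present, so the order is approximate.

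Ratios of paralogs within a library do not depend on library scaling. The log2 ratio of MOB1A to MOB1B was -0.09, -0.26 and 0.56 in hypoxia against 1.14, 1.19 and 1.27 in normoxia, so that MOB1A went with 1.05 times the CPM of MOB1B in hypoxia and 2.30 times in normoxia. LATS1 over LATS2 was -0.20, -0.62 and -0.46 in hypoxia and -0.07, -0.05 and -0.17 in normoxia. In neither pair did the groups overlap, and each reached p = 0.10 in a two-sided exact permutation test, the smallest that 3 against 3 libraries allow (0.20 adjusted over the 4 ratios). STK3 over STK4 (-2.01, -2.23 and -1.55 in hypoxia, -1.67, -1.66 and -1.55 in normoxia) and YAP1 over WWTR1 (0.52, 0.51 and 0.21 in hypoxia, 0.51, 0.45 and 0.46 in normoxia) overlapped, at exact permutation p = 0.3 and 1. Without replicate 3 the difference of YAP1 over WWTR1 was 0.03, where it was -0.06 with all libraries.

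**Figure D3:**
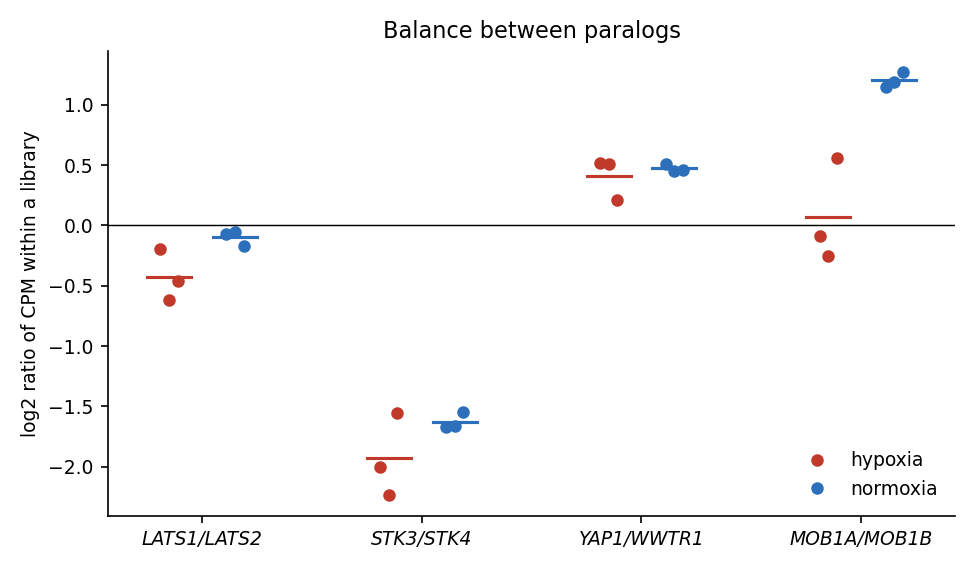
Log2 ratio of the CPM of 2 paralogs within each library, hypoxia in red on the left and normoxia in blue on the right, with a bar at each mean. MOB1A over MOB1B lies at 0.56 or lower in hypoxia and at 1.14 or higher in normoxia.

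Promoter sequence is shown for 4 members alone, the 2 that fell and the 2 LATS genes that rose. Each is the RefSeq window of GRCh38.p14 from 250 bases before to 50 bases after the annotated start nearest to the gene's outermost start, 5′ to 3′ on the gene's strand. The windows are chr22:29603306-29603605 (plus strand) for NF2, chr2:74178830-74179129 (minus) for MOB1A, chr6:149718052-149718351 (minus) for LATS1 and chr13:21061537-21061836 (minus) for LATS2. Capitals mark the core letters of the hypoxia response element, ACGTG or GCGTG, on either strand (CACGT or CACGC on the printed one).
NF2: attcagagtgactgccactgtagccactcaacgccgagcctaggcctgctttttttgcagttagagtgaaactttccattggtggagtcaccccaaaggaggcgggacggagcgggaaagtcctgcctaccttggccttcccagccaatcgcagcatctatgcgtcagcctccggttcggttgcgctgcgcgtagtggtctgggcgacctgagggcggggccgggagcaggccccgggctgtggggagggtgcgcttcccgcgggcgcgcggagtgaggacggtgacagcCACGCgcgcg
MOB1A: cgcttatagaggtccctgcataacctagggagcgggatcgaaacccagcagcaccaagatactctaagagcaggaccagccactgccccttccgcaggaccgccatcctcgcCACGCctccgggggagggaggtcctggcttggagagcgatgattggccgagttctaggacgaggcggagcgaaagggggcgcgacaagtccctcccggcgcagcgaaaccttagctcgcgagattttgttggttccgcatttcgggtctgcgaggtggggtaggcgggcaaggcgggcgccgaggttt
LATS1: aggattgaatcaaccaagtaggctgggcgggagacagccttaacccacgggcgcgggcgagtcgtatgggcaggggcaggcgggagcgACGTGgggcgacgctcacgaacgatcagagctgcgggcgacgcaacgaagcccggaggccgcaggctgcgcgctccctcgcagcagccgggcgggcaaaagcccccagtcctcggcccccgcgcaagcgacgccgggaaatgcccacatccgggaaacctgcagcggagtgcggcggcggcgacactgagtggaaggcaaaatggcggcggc
LATS2: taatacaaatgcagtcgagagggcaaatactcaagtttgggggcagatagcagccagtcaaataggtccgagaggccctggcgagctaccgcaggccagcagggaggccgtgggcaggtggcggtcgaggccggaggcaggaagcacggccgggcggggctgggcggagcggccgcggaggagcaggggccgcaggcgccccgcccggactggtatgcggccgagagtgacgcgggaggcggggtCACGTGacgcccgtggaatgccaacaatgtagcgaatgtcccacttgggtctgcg
The core letters occurred at least once in these 4 windows. In the windows of the same kind not printed here, SAV1, which rose, held 0 matches. STK4, which was not called, held 3, so matches did not follow the calls. The capitals in LATS2 spell CACGTG, which reads the same on both strands and so counts on each. LATS2 also holds GGAATG, the core letters of TEAD binding sites, 9 bases after the start, and YAP1 holds them 162 bases before it. With all windows of a gene counted, 7 of the 9 members in the table, among them members that fell and members that rose, held the hypoxia response core. Among the tested genes with a window it was 69.3%, and 52.4% of all genes in the table. GGAATG, on either strand, was present for 2 of 9 members and for 15.2% of tested genes. A match describes letters in a window and not a bound site.

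The genes next to NF2 on chromosome 22 moved in both directions. Of the 5 tested protein-coding genes on each side, 6 rose, 2 fell and 2 were not called, with a median log2 change of 0.33. Over all tested genes 31.2% rose and 31.0% fell, with a median of 0.01, so calls both ways are not unusual in these libraries. NIPSNAP1, the nearest at lower coordinates, was at 82.4 CPM in hypoxia and 93.0 CPM in normoxia and was not called (log2 change -0.18 ± 0.11, edgeR adjusted p = 0.170). ZMAT5, the nearest on the other side, rose by 1.18 ± 0.16. The falls were in EWSR1, an RNA-binding protein gene, at -1.51 ± 0.11, and in AP1B1, a clathrin adaptor subunit gene, at -1.01 ± 0.11. With library totals alone 2 neighbours rose and 4 fell, 4 rose and 4 fell without hypoxia replicate 1, and 3 rose and 2 fell without normoxia replicate 1 or 2. Other tumour suppressor genes of the same chromosome arm, SMARCB1, LZTR1 and CHEK2, did not pass the test, at log2 changes of 0.12, 0.18 and -0.38 (adjusted p = 0.431, 0.284 and 0.137). Counted together with NF2, 2 of these genes were lower with library totals alone and with no filter, in place of 1.

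**Figure D4:**
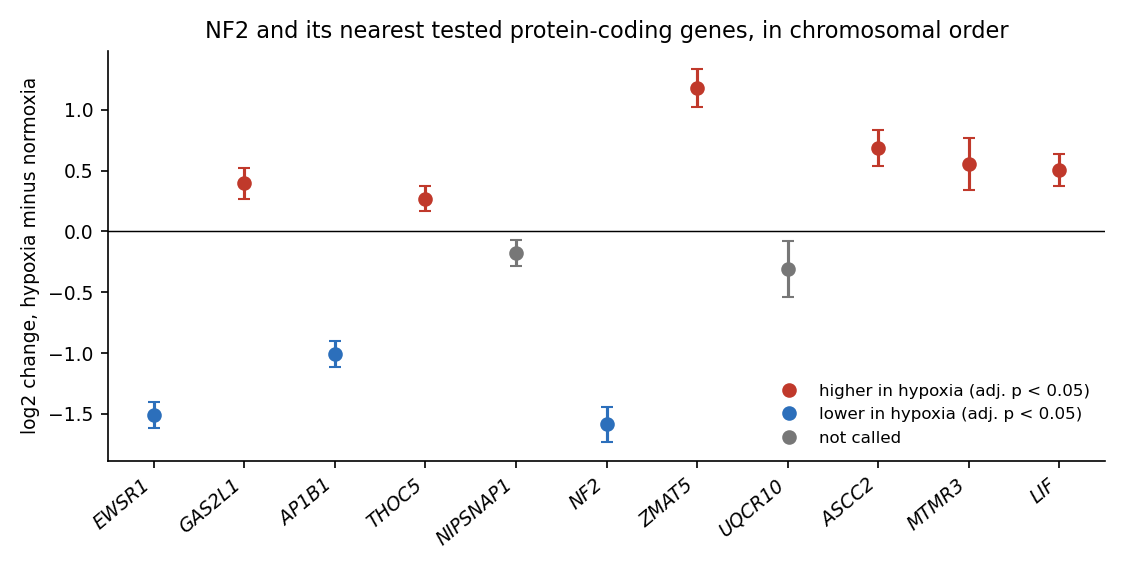
Log2 change (hypoxia minus normoxia, with SE) of NF2 and the 5 nearest tested protein-coding genes on each side, in chromosomal order and not to scale in distance. NF2 at -1.58 lies between NIPSNAP1 at -0.18 and ZMAT5 at 1.18.

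The genes whose centred log2 CPM over the 6 libraries lay nearest to that of NF2, among 9333 others with a symbol and at least 10 CPM, were LMNB1, HLTF, EEF1E1, PKD2 and HMGB3, at Euclidean distances from 0.15 to 0.26. LMNB1, which encodes a nuclear lamin, was at 37.9, 42.1 and 51.5 CPM in hypoxia and 119, 131 and 136 CPM in normoxia. The log2 changes of these 5 genes lay between -1.57 and -1.46.

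Merlin's own relatives and partners, listed together with the tumour suppressor genes SMARCB1 and LZTR1, moved both ways. Of 18 genes in that list, 5 rose, 6 fell and 7 were not called, where 31.2% of all tested genes rose and 31.0% fell. The median log2 change was 0.03, against 0.01 over all tested genes. The list's median turned to -0.04 with upper-quartile scaling and -0.28 with library totals alone. In place of 5, 3 rose without hypoxia replicate 2 or any 1 normoxia library. In place of 6, 8 fell without hypoxia replicate 3, 9 with library totals alone and 1 against 1.5-fold. The ERM genes EZR (220 ± 51.3 CPM in hypoxia, 280 ± 1.18 CPM in normoxia), RDX and MSN were not called, at edgeR adjusted p of 0.0561, 0.267 and 0.304. EZR was at 195 and 187 CPM in hypoxia replicates 1 and 2 and at 279 CPM in hypoxia replicate 3. Its normoxia libraries lay at 278 to 281 CPM. CD44, a hyaluronan receptor bound by merlin, rose 1.92-fold to 1372 ± 60.1 CPM in hypoxia against 716 ± 4.05 CPM in normoxia, and the spectrin gene SPTBN1 rose 1.69-fold. NHERF1, a membrane scaffold, was at 9.61 ± 0.647 CPM in hypoxia and 22.7 ± 1.53 CPM in normoxia, 2.35-fold lower. DCAF1, the substrate receptor of the ubiquitin ligase that merlin inhibits, fell by 0.45 ± 0.11 on the log2 scale.

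Other activators of the Hippo kinases, listed together with the NDR kinase genes STK38 and STK38L, also moved both ways. Of 17 listed genes 15 were tested, of which 4 rose, 4 fell and 7 were not called, with a median log2 change of -0.17. The shares over all tested genes were 31.2% higher and 31.0% lower. The germinal centre kinases TNIK and MINK1, which can phosphorylate LATS in parallel with MST, rose 6.43-fold, to 29.9 ± 10.1 CPM in hypoxia against 4.68 ± 0.212 CPM in normoxia, and 2.05-fold. STK38L, an NDR kinase related to LATS, fell 3.69-fold, to 4.82 ± 0.237 CPM in hypoxia against 17.8 ± 3.18 CPM in normoxia. FRMD6, the relative of fly Expanded, was not called (180 ± 13.6 CPM in hypoxia, 185 ± 4.07 CPM in normoxia, adjusted p = 0.721). With library totals alone the list had 2 higher and 9 lower. The number higher was 2 without hypoxia replicate 2 or normoxia replicate 2 or 3, and 6 fell without hypoxia replicate 3.

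Of 10 RASSF genes, 8 were tested, 5 rose and 2 fell (median log2 change 1.28), where 31.2% of all tested genes rose and 31.0% fell. The products of some of these genes, and not of all, can bind MST kinases. RASSF4 was at 194 ± 7.31 CPM in hypoxia and 9.35 ± 0.986 CPM in normoxia, and RASSF1 rose 4.55-fold. The falls were in RASSF3, 1.90-fold, and RASSF9, named after its values were seen, which had 0 counts in hypoxia against 48, 27 and 25 in normoxia and was at least 6.53-fold lower when set against a floor of 3 counts per library. The list's median was also 1.28 with RASSF9 at that bound.

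The STRIPAK complex is a phosphatase assembly that inactivates MST kinases. Of 18 genes, all tested, 7 rose, 6 fell and 5 were not called, where 31.2% of all tested genes rose and 31.0% fell. The median log2 change was 0.14, and it turned to -0.17 with library totals alone. STK24, STK25 and FGFR1OP2 rose by 0.91 ± 0.09, 0.91 ± 0.12 and 0.89 ± 0.10 on the log2 scale. STRIP2 fell by 1.67 ± 0.15, MOB4 by 1.32 ± 0.25 and the phosphatase catalytic subunit gene PPP2CA by 1.08 ± 0.16.

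Of 4 genes for LIM proteins that restrain LATS, 3 rose and 0 fell, where 31.2% of all tested genes rose and 31.0% fell. LIMD1, ZYX and AJUBA rose, and WTIP was not called (14.2 ± 3.14 CPM in hypoxia, 15.2 ± 1.18 CPM in normoxia, edgeR adjusted p = 0.679). LIMD1 was at 107, 119 and 157 CPM in hypoxia and 32.0, 35.7 and 34.0 CPM in normoxia, a 3.78-fold rise. ZYX was at 315 ± 29.1 CPM in hypoxia and 159 ± 2.96 CPM in normoxia, and AJUBA at 140 ± 40.3 CPM in hypoxia and 73.6 ± 3.85 CPM in normoxia. The 3 calls were made under every alternative, including the test against 1.5-fold. The median log2 change of the 4 genes was 0.96.

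Of 27 cell-surface and polarity genes 20 were tested, 5 rose, 6 fell and 9 were not called (median log2 change -0.01). Among all tested genes 31.2% rose and 31.0% fell. With library totals alone 3 of the listed genes rose and 10 fell (median -0.32). TJP1, a tight junction scaffold gene, was at 94.6 ± 17.7 CPM in hypoxia and 202 ± 11.4 CPM in normoxia, 2.14-fold lower, and the cadherin gene FAT2 fell by 2.24 ± 0.41 on the log2 scale at low levels (0.672 ± 0.284 CPM in hypoxia, 3.02 ± 0.748 CPM in normoxia). The polarity gene PARD3 rose by 0.74 ± 0.09.

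Among 26 genes for binding and turnover of YAP and TAZ, all tested, 8 rose, 9 fell and 9 were not called (median log2 change -0.26). The shares over all tested genes were 31.2% higher and 31.0% lower. Without hypoxia replicate 3, 14 fell, and with library totals alone 15. SIAH2, a ubiquitin ligase that degrades LATS2 and prolyl hydroxylases, rose 7.30-fold, to 154 ± 10.7 CPM in hypoxia against 21.1 ± 1.88 CPM in normoxia. ABL1, a tyrosine kinase that phosphorylates YAP, rose 4.10-fold. CSNK1E, a casein kinase that primes YAP for degradation, rose by 0.96 ± 0.09 on the log2 scale. YWHAB is a 14-3-3 gene whose family holds phosphorylated YAP in the cytoplasm. It was at 87.4 ± 9.57 CPM in hypoxia and 282 ± 13.4 CPM in normoxia, 3.22-fold lower. Of the other family genes listed, YWHAG rose 1.82-fold, to 460 ± 37.6 CPM in hypoxia against 252 ± 30.9 CPM in normoxia. YWHAQ fell 1.30-fold, and YWHAE, YWHAH, YWHAZ and SFN were not called. NEDD4 fell by 0.86 ± 0.10 on the log2 scale.

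Downstream, 4 of 5 tested TEAD and VGLL genes rose and 0 fell, where 31.2% of all tested genes rose and 31.0% fell. TEAD4 led (40.2 ± 1.58 CPM in hypoxia, 27.4 ± 0.844 CPM in normoxia), while the groups overlapped for TEAD1 and TEAD3. With library totals alone 0 rose and 1 fell, and against 1.5-fold 0 rose. In place of 4, 2 rose with upper-quartile scaling, without hypoxia replicate 3 or without any 1 normoxia library, and 1 with no filter. Of 22 listed YAP and TAZ targets 21 were tested, 5 rose, the core member LATS2 among them, 8 fell and 8 were not called. The median log2 change was -0.28, and -0.58 with library totals alone. In place of 8, 12 fell with library totals alone or without hypoxia replicate 3, and 2 against 1.5-fold. CCN1 was at 307, 308 and 488 CPM in hypoxia and 946, 951 and 999 CPM in normoxia. IGFBP3 rose most, to 528, 490 and 1225 CPM in hypoxia against 10.3 ± 0.567 CPM in normoxia, and F3 was 11.6-fold higher.

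**Figure D5:**
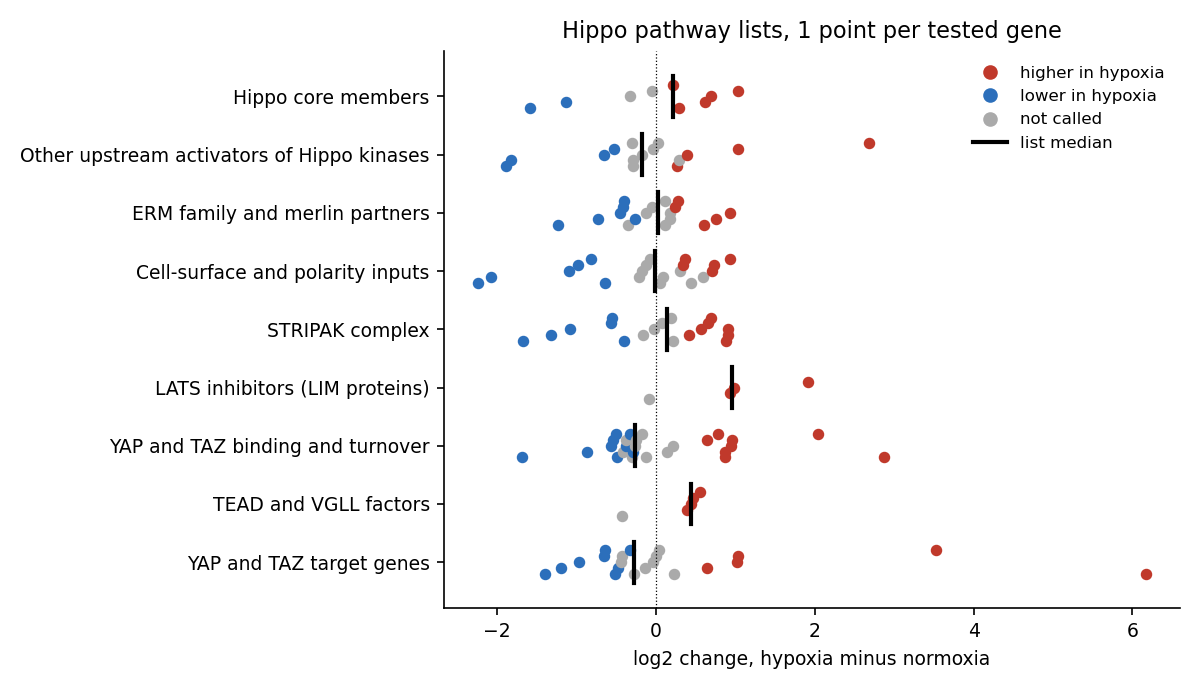
Log2 change (hypoxia minus normoxia) of every tested gene of the Hippo core and of 8 other pathway lists, red where higher, blue where lower and grey where not called, with a black bar at each list's median. The LIM protein list has its median at 0.96, while the medians of the merlin partner and polarity lists lie at 0.03 and -0.01.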

How the data were processed

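Per the submitters' processing notes, fastp 0.20.1, HISAT2 2.1.0, featureCounts 2.0.1 and the build GRCh38.p13 were used, and the authors deposited raw read counts per Ensembl gene. No source used here states the strand setting or the annotation release. Of 61860 lines, 1 names no gene (0.00243% of counts) and was left out. A second deposited table, with values run together, was not used here. Symbols matched 61756 genes, and coordinates and exon lengths are from GENCODE 29.

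The counts were fitted in edgeR 4.0.16 (R 4.3.3): filterByExpr (minimum count 10, total 15; 16411 genes), TMM, the robust quasi-likelihood test and Benjamini-Hochberg adjustment over all tested genes at 0.05. SE is the log2 change over the square root of F. The fit was tested on simulated data. Alternatives used DESeq2 1.42.0, limma 3.58.1 and other scalings and filters, among others. No 2 libraries of a group matched within sampling noise (5.96 to 38.0 chi-square units per gene). A floor of 3 counts was 0.181 to 0.316 CPM in hypoxia and 0.133 to 0.184 CPM in normoxia, for counting error only.

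Members and lists were chosen with earlier results of these data known. Other named genes are, per list, up to 3 called genes with the largest rise and 3 with the largest fall at a mean of at least 1 CPM, the 5 neighbours on each side of NF2 and its 5 nearest in pattern. Members, and genes named as not called, are given besides, as are YWHAG and YWHAQ, named after their values were seen. Some genes that the rule takes are left out of the text.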

Additional observations from a re-analysis of the deposited data

How the results depend on the processing

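NF2, MOB1A and LATS2 kept their direction and call under all 16 alternatives, and LATS1 and SAV1 under all but the test against 1.5-fold (0.70 and 0.61, not called there). STK3 was called with upper-quartile scaling (-0.40), library totals alone (-0.63) and no filter (-0.44), and STK4 with library totals alone (-0.35). YAP1 was not called with upper-quartile scaling (0.15), no filter (0.095), DESeq2 (0.22) or against 1.5-fold (0.22), and was -0.092 with library totals alone. WWTR1 was not called with RLE scaling (0.29), upper-quartile scaling (0.22), no filter (0.17), DESeq2 (0.29) or against 1.5-fold (0.29), and was -0.019 with library totals alone. The number of members higher was 3 with upper-quartile scaling, library totals alone, no filter and DESeq2 and 1 against 1.5-fold, and 4 were lower with library totals alone. Against 1.5-fold 2825 genes were higher and 3045 lower. Leaving out 1 library gave 3 to 4 members higher and 2 to 3 lower, YAP1 from 0.17 to 0.22, WWTR1 from 0.13 to 0.35 and STK3 from -0.54 to -0.25. Leaving out 1 replicate number gave -0.12 to 0.034 for YAP1 over WWTR1, which turned its sign without replicate 3. Causes were not tested. Same-numbered hypoxia and normoxia libraries correlated at -0.11, 0.086 and -0.04 in their deviations from the group means. Pairs with different numbers ranged from -0.14 to 0.18. With 3 libraries per group these values cannot show whether same-numbered libraries were handled together, and the labels state no pairing. With a replicate block 3 members were higher, and YAP1 (0.22) and WWTR1 (0.28) were not called. The planned limma fits on the second deposited table were not run. Depth limits WWC1, with 48 counts in all.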
